A study of Mus musculus with 17 samples.

Results

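Messenger RNA of 9 genes that serve the killing functions of neutrophils was followed in mouse liver: Cybb, Cyba, Ncf1, and Ncf4 of the phagocyte NADPH oxidase, and Mpo, Elane, Ltf, Camp, and Ngp of the granules. They are all genes of this set with a probe under that symbol, 9 of 21452 genes named on the array, and they have 12 probes. Each of the 9 had at least 1 probe among the 19350 genes tested. The livers came from 17 male mice with no engineered allele, which the sample labels call C57BL/6N and the methods call C57BL/6J. Chow mice (n = 4) ate chow for 3 months and received maltose by gavage, 1B mice (n = 4) ate chow and received 1 gavage of ethanol at 5 g/kg, HFD mice (n = 4) ate a high-fat diet for 3 months and received maltose, and HFD+1B mice (n = 5) ate the high-fat diet and received the ethanol. All livers were taken at 9 hours after the gavage, so only that time after a single dose is described. On each array, Cy5-labeled cDNA of 1 liver was hybridized with a Cy3-labeled reference RNA that every array shared, and a level is the log2 ratio of liver to reference.

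Neutrophils kill microbes with a burst of superoxide and with proteins stored in granules. The oxidase is assembled on demand: Cybb (the catalytic subunit, also known as NOX2) and Cyba lie in the membrane, and Ncf1 and Ncf4 come from the cytosol, as does the GTPase Rac2. Macrophages, Kupffer cells, and B cells also carry much of this oxidase. Granule proteins are made in the bone marrow while the neutrophil matures: Mpo (myeloperoxidase) and Elane (neutrophil elastase) go into primary granules at the promyelocyte stage, and Ltf (lactoferrin), Camp (the cathelicidin antimicrobial peptide), and Ngp (neutrophilic granule protein) into secondary granules at a later stage. Circulating neutrophils hold the proteins, with little of these messengers left. The study asks how neutrophils act in a steatohepatitis made by combining the diet with the ethanol binge, and reactive oxygen from the oxidase is 1 of the products it considers. In whole liver, fewer cells of a type and less RNA per cell cannot be told apart.

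The probes are oligonucleotides of 60 bases, printed 5′ to 3′ as the authors' table gives them. Those of the oxidase genes are shown since the results turn on them, and for Cybb and Ncf1 on which of their probes is read, and that of Camp for comparison. Capitals mark every taa, tag, or tga triplet, in whichever frame. The probes of Cyba and Camp and the first Cybb probe are shown whole and the others by their first 30 bases.
Cybb, probe A_51_P330331: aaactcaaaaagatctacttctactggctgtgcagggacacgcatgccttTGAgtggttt
Cybb, probe A_52_P444628: tccagtctgTAAgcTGAaaaagaagaacac
Cyba, probe A_51_P131800: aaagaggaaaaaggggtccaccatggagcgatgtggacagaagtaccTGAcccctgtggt
Ncf1, probe A_51_P207031: gaggcagTGAgcgctgcTAGggtgggggtt
Ncf1, probe A_52_P651425: gggcagttaTAGatTAAtatTAGcaacTAA
Ncf4, probe A_51_P377452: TGAtgTAAgatgcaaacctcctggcccaga
Camp, probe A_51_P180423: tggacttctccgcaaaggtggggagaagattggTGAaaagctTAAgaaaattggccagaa
Over its 60 bases, the first Cybb probe keeps 2 of 3 forward frames free of stop triplets, and so does that of Cyba. The second Cybb probe and both Ncf1 probes keep 0 such frames. The base composition differs as well, with 45.0% G and C in the first and 36.7% in the second Cybb probe, and 55.0% and 31.7% in those of Ncf1. The array was annotated on an older genome build than the reference at hand, so no positions on the genome are given.

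The depth of an array is its signal over background. Per array, the median signal in Cy5 lay between 63 and 158 intensity units, and 74.2% to 86.1% of probes were well above background. Of the 12 probes of the 9 genes, 11 were well above background in Cy5 on all 17 arrays, and none lacked a value. The exception is the second Ncf1 probe, with a Cy5 signal of 27 to 47 units. It was well above background on 1 array, that of HFD+1B mouse 2, and on no array of chow, 1B, or HFD. Albumin (Alb) and Apoa1 gave signals of 92011 to 191615 and of 24735 to 120362 units, and both are products of hepatocytes. The HFD arrays stood apart in 5 probes of ribosomal RNA, whose mean log2 ratio was -3.80 to -2.15 in HFD and -1.17 to 1.11 in the other mice. HFD+1B mouse 2 had the brightest array (median 158 units). Whether these differences between arrays play a part in the values of the 9 genes was not tested.

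In a single comparison, 0 to 2 of the 9 genes passed the test, where 4.14% to 19.3% of all genes tested passed in either direction. Cyba, Cybb, and Ncf1 passed in some comparison, and the share of all genes that did so was not computed. None of the 5 granule genes passed, and whether oxidase and granule genes differ in this was not tested. Cyba was higher in both groups on the high-fat diet than in chow. Cybb, on the first of its probes, and Ncf1 were higher in HFD+1B than in HFD. Each of these differences was smaller than 2-fold. The second Cybb probe, of nearly equal brightness, gave -0.12 in HFD+1B minus HFD (adjusted p from limma 0.703). A gene was called at a Benjamini-Hochberg adjusted p of 0.05 or less from limma over all 34650 probes tested, on its brightest tested probe, in a single fit of the 4 groups.

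Cyba encodes the small membrane subunit that stabilizes Cybb. Its log2 ratio was -0.26, 0.17, -0.18, and -0.22 in the 4 chow mice and -0.02, 0.01, -0.30, and -0.12 in the 1B mice. In the HFD mice it was 0.60, 0.59, 0.25, and 0.48, and in the HFD+1B mice 0.04, 0.67, -0.07, 0.65, and 0.50. Every HFD mouse lay above every chow and 1B mouse, whereas 2 of the 5 HFD+1B mice lay within the range of chow. HFD exceeded chow by 0.60 on the log2 scale (SE 0.16, adjusted p = 0.0235), and by 0.41 to 0.86 on the 3 slides that held both groups. HFD+1B exceeded chow by 0.48 (SE 0.15, adjusted p = 0.0392), and by 0.15 to 0.85 on 4 slides. With slide as a block the differences were 0.58 and 0.45, with adjusted p of 0.02 and 0.0301. HFD+1B did not differ detectably from HFD (-0.12, SE 0.15, adjusted p = 0.63). Against 1B it was 0.47 higher (SE 0.15) with an adjusted p of 0.0585, and with slide as a block 0.53 higher with an adjusted p of 0.016. The HFD call was lost without any 1 of chow mice 1, 3, and 4 and HFD mice 1, 2, and 4, with adjusted p of 0.0515 to 0.0685, and when loess was replaced by median centring (0.39, adjusted p = 0.163). The HFD+1B call was lost without any 1 of chow mice 1, 3, and 4 and HFD+1B mice 2, 4, and 5, with adjusted p of 0.0793 to 0.107, and with the authors' log2 ratios (0.55, adjusted p = 0.0588). With the Cy5 signal alone both were lost (adjusted p of 0.0627 and 0.189). Against 1B, the call was gained without HFD+1B mouse 1 (adjusted p = 0.0271) or 3 (adjusted p = 0.0171), and over all left-out mice the adjusted p ran from 0.0171 to 0.171.

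Macrophages make these oxidase subunits as well, so the levels of macrophage genes are given beside those of Cyba. The mean log2 ratio of 12 Kupffer cell and macrophage genes ranged from -0.58 to 0.05 over the chow mice and from -0.41 to -0.09 over the 1B mice, against 0.05 to 0.21 over the HFD and -0.05 to 0.48 over the HFD+1B mice. Of these 12 genes, 3 were called as higher in HFD than in chow, beside 4.6% of all genes tested, and 3 in HFD+1B, beside 9.02%, and 0 were called as lower. The other 9 in each comparison did not pass, among them Vsig4 (0.01 in HFD+1B minus chow, adjusted p = 0.987) and Csf1r (0.09, adjusted p = 0.785). Cd68, a lysosomal protein of macrophages, exceeded chow by 1.37 in HFD+1B (SE 0.20, adjusted p = 0.000114) and in HFD by 1.28 (adjusted p = 0.00117). C1qa and C1qb, complement components that Kupffer cells make, were 0.95 (adjusted p = 0.0247) and 0.86 (adjusted p = 0.0164) higher in HFD+1B than in chow. Of the macrophage list, Timd4 was on the array and did not pass the filter on dim probes. The genes whose log2 ratios were most like those of Cyba over the 17 arrays were Ly86 (r = 0.92), Marcks (r = 0.91), and Lyz2 (r = 0.90), out of 15355 genes compared, a description with no test. Ly86 and Lyz2 are genes of myeloid cells. The part of macrophages in the Cyba difference was not tested.

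Cybb was read by a pair of probes of nearly equal brightness, and they did not give the same picture. On the probe A_51_P330331, which is the brighter by a small margin (mean log2 Cy5 signal 7.17 against 7.16), the log2 ratio was -0.03, 0.25, 0.12, and -0.07 in chow, and -0.56, 0.06, 0.06, and -0.06 in 1B. It was -0.02, -0.09, -0.37, and -0.50 in HFD. In HFD+1B it was 0.00, 0.50, 0.16, 0.47, and 0.29, each value above all of HFD. HFD+1B exceeded HFD by 0.53 (SE 0.14, adjusted p = 0.0161), and by 0.02 to 0.97 on the 4 slides that held both. Slide as a block gave 0.49 (adjusted p = 0.0173). On the probe A_52_P444628, the HFD values were 0.63, 0.60, 0.11, and 0.45, and the HFD+1B values -0.06, 0.91, 0.01, 0.28, and 0.50. There HFD+1B minus HFD was -0.12 (SE 0.18, adjusted p = 0.703), and the difference was below 0 on all 4 slides (-0.69 to -0.10). The mean of both probes gave 0.20 with an adjusted p of 0.367. In HFD minus chow the first probe had a difference of -0.31 (SE 0.15, adjusted p = 0.206) and the second of 0.41 (SE 0.19, adjusted p = 0.186), so neither passed. With the Cy5 signal alone, without division by the reference, the first probe gave 0.15 in HFD+1B minus HFD (adjusted p = 0.763). The call was also lost without HFD mouse 3 (adjusted p = 0.0502) and without HFD mouse 4 (adjusted p = 0.0662). Against 1B, HFD+1B was 0.41 higher on the first probe (SE 0.14, adjusted p = 0.0806), which passed with slide as a block (0.45, adjusted p = 0.037) and without HFD+1B mouse 1 (adjusted p = 0.0402). Without 1B mouse 1 it was 0.27 (adjusted p = 0.288), and with the Cy5 signal alone 0.19 (adjusted p = 0.81). On the second probe it was 0.16 (SE 0.18, adjusted p = 0.703), and 0.22 with slide as a block (adjusted p = 0.491).

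The interaction asks whether the binge changed Cybb by another amount under the high-fat diet than under chow. On the first probe, 1B minus chow was -0.19 (SE 0.15) and HFD+1B minus HFD was 0.53, and the interaction was 0.72 (SE 0.21, adjusted p = 0.0574). It passed the threshold once slide was a block (0.71, adjusted p = 0.0423), and also without HFD mouse 1 (0.79, adjusted p = 0.0463), and without HFD+1B mouse 1 (0.79, adjusted p = 0.0427). Without HFD mouse 4 it was 0.64 (adjusted p = 0.119), without 1B mouse 1 it was 0.57 (adjusted p = 0.108), and with the Cy5 signal alone 0.24 (adjusted p = 0.821). On the second probe the interaction was -0.25 (SE 0.26, adjusted p = 0.659).

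Ncf1 encodes the cytosolic organizer of the oxidase, and its phosphorylation starts the assembly. On its bright probe, A_51_P207031, the log2 ratio was -0.07, -0.30, -0.17, and 0.00 in chow, and 0.11, 0.17, 0.15, and 0.00 in 1B. The HFD mice had -0.19, -0.29, -0.61, and -0.62, and the HFD+1B mice -0.01, 0.24, -0.06, -0.01, and -0.21. The HFD mice were the lowest group, and HFD mouse 1 overlapped with HFD+1B mouse 5. HFD+1B exceeded HFD by 0.42 (SE 0.11, adjusted p = 0.0127), and by 0.08 to 0.61 on 4 slides. The fit with slide as a block gave 0.39 (adjusted p = 0.0218). HFD minus chow was -0.29 (SE 0.11, adjusted p = 0.113) and HFD+1B minus chow 0.13 (SE 0.11, adjusted p = 0.529), so the difference from chow did not pass in either group. The Cy5 signal alone gave 0.11 in HFD+1B minus HFD (adjusted p = 0.803), the authors' log2 ratios 0.37 (adjusted p = 0.0521), and the fit without HFD mouse 4 gave 0.35 (adjusted p = 0.055). On the dim probe, A_52_P651425, the log2 ratio was -0.09 to 0.11 in 16 mice and 0.47 in HFD+1B mouse 2. Chow, 1B, HFD, and 4 of the 5 HFD+1B mice were not well above background there, so this probe gives no fold change between groups.

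Ncf4, the subunit that binds phosphoinositides of the phagosome, had log2 ratios of -0.02, -0.19, -0.33, and -0.30 in chow and -0.53, -0.30, -0.30, and -0.12 in 1B. The HFD mice had -0.12, 0.09, -0.14, and 0.00 and the HFD+1B mice -0.23, 0.39, -0.19, 0.35, and 0.12. The HFD+1B mice fell apart into 2 mice within the range of chow and 3 above it, and the same mice, 1 and 3, were the low ones for Cyba. HFD+1B minus chow was 0.30 (SE 0.13, adjusted p = 0.148). HFD+1B minus 1B was 0.40 (SE 0.13, adjusted p = 0.0578), and 0.30 to 0.69 on 4 slides, and with slide as a block it was 0.44 with an adjusted p of 0.023. It also passed without 1B mouse 4 (adjusted p = 0.0469), HFD+1B mouse 1 (adjusted p = 0.0201), or HFD+1B mouse 3 (adjusted p = 0.0318), and over all left-out mice the adjusted p ran from 0.0201 to 0.188. Over the 17 arrays, Cyba and Ncf4 correlated at r = 0.74, Cybb and Ncf4 at 0.57, and Cyba and Ncf1 at -0.31, all on the same arrays and reference.

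**Figure D1:**
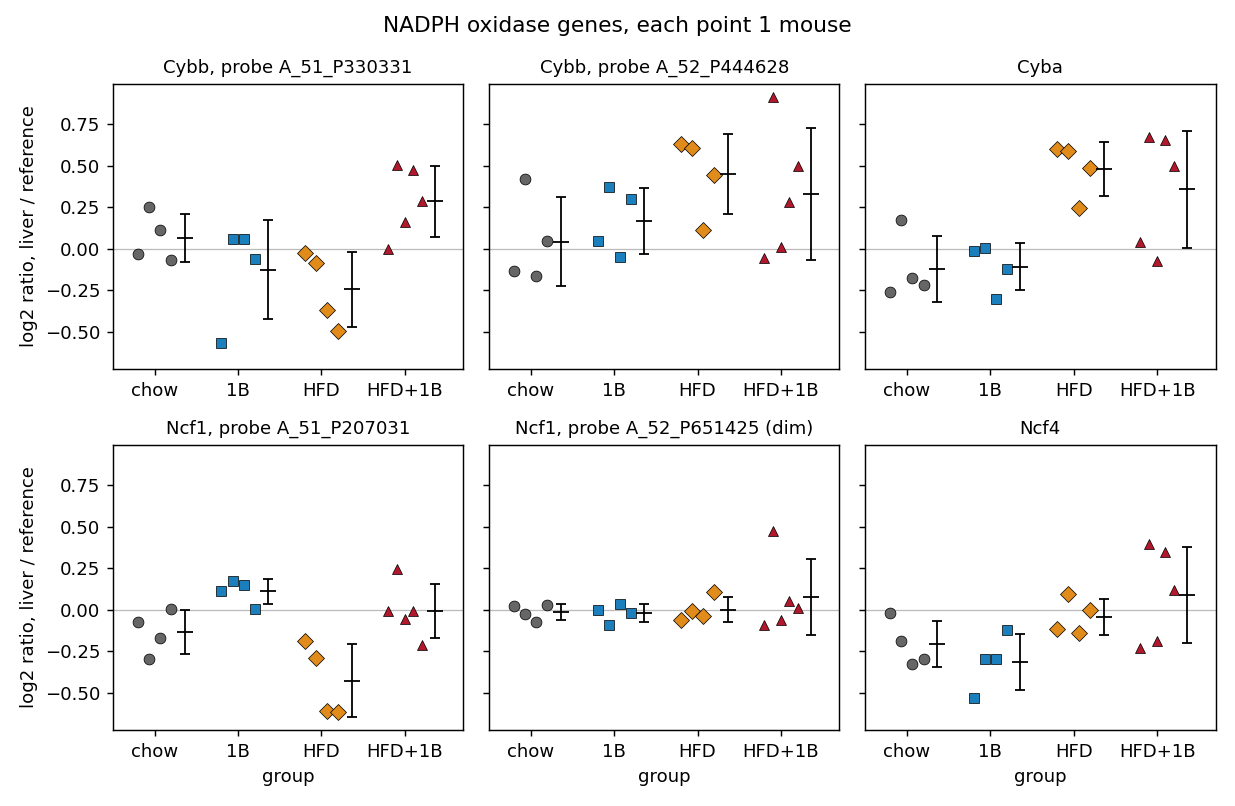
Log2 ratio of liver to reference (vertical axis) of the 6 oxidase probes in the 4 groups. Each point is 1 mouse and the bar is the mean with its SD. The HFD mice lie above all chow mice for Cyba and below 0 for the first Cybb probe and the bright Ncf1 probe, whereas the second Cybb probe has its HFD mice above 0. HFD+1B mouse 2 is the highest of its group in every panel.

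The counts of called genes are best read beside those of all 19350 genes tested. In 1B minus chow, limma called 0 of 9, beside 2.13% of all genes called as higher, 2.02% as lower, and 4.14% in either direction. Ncf1 alone had an unadjusted p below the threshold there, by limma (0.24, SE 0.11), and its adjusted p from limma was 0.354. In HFD minus chow it called Cyba as higher, beside 4.6% of all genes, and 0 of 9 as lower, beside 6.32% (10.9% in either direction). In HFD+1B minus chow it called Cyba as higher, beside 9.02%, and 0 as lower, beside 7.29% (16.3% in either direction). Both comparisons share the chow mice. In HFD+1B minus HFD, Cybb (on its first probe only) and Ncf1 were called as higher, beside 10.9% of all genes, and 0 as lower, beside 8.45% (19.3% in either direction).

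In HFD+1B minus 1B, limma called 0 of 9, beside 6.24% of all genes as higher, 5.12% as lower, and 11.4% in either direction, and 3 had an unadjusted p below the threshold (Cybb, Cyba, and Ncf4). With slide as a block those 3 were called as higher, beside 7.38% of all genes under that block. The Tukey test that the methods name, run after an analysis of variance, gave Ncf4 among the 9 a p of 0.0446. That p is adjusted over the pairs of groups within a gene and not over genes. It is therefore not comparable with the adjusted p from limma, and no share of all genes was computed for it. In the interaction, limma called 0 of 9, beside 2.54% as higher, 1.73% as lower, and 4.27% in either direction, and Cybb alone had an unadjusted p below the threshold. No member reached a 2-fold difference with an unadjusted p of 0.05 or less. Of all genes, 1.06% did so in 1B minus chow, 1.95% in HFD minus chow, 3.04% in HFD+1B minus chow, 2.09% in HFD+1B minus HFD, 1.91% in HFD+1B minus 1B, and 2.2% in the interaction.

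On the brightest probes, groups without overlap were counted in the same way, and the counts among the 9 genes lay near the shares of all genes. HFD lay above chow for 1 of 9 (Cyba), beside 9.2% of all genes, and below chow for 1 of 9 (Mpo), beside 10%. HFD+1B lay above HFD for 1 of 9 (Cybb), beside 8.25%, and below HFD for 0 of 9, beside 7.07%. In the other comparisons 0 of 9 were apart, beside 6.28% higher and 5.61% lower of all genes in 1B minus chow, 8.24% and 7.23% in HFD+1B minus chow, and 5.67% and 5.76% in HFD+1B minus 1B. The median log2 difference of the 9 genes was -0.07 in 1B minus chow, -0.12 in HFD minus chow, -0.03 in HFD+1B minus chow, and 0.13 in HFD+1B minus HFD, where that of all genes was 0.01, 0.00, 0.00, and 0.01. The median for HFD+1B minus chow ranged from -0.09 to 0.07 over other settings and left-out mice, that for 1B minus chow from -0.16 to 0.02, and that for HFD+1B minus HFD from -0.02 to 0.28, so these 3 have no settled sign.

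**Figure D2:**
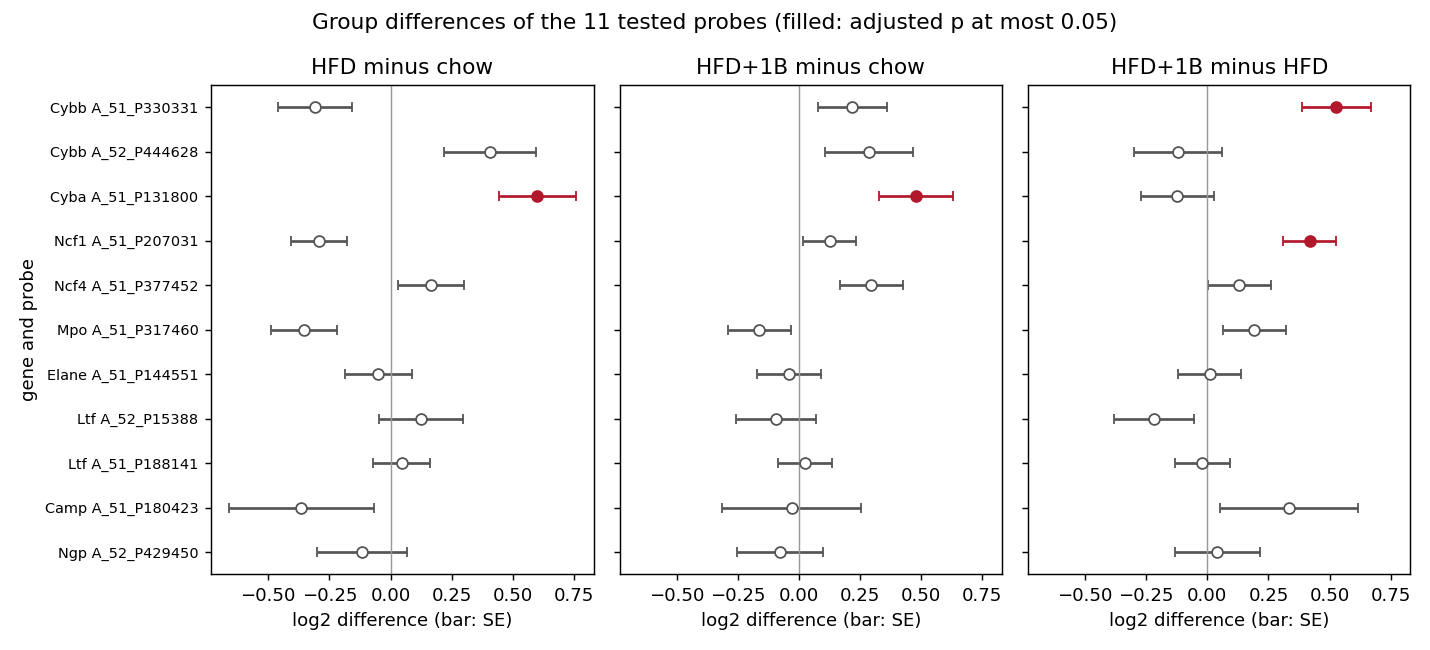
Log2 differences of the 11 tested probes (horizontal axis) in 3 comparisons, with bars of 1 SE and filled points at an adjusted p of 0.05 or less. Filled points are Cyba in HFD minus chow and in HFD+1B minus chow, and the first Cybb probe and Ncf1 in HFD+1B minus HFD, while all granule genes are open in all 3 panels.

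No granule gene passed the test in any of the 6 comparisons. Mpo, which makes hypochlorous acid in the primary granule, had log2 ratios of 0.31, 0.18, 0.68, and 0.35 in chow and 0.36, 0.21, 0.49, and 0.05 in 1B. The HFD mice had 0.15, 0.10, -0.21, and 0.07 and the HFD+1B mice 0.26, 0.09, 0.27, 0.52, and -0.03. All HFD mice lay below all chow mice, and the difference was -0.35 (SE 0.13, unadjusted p = 0.0172, adjusted p = 0.104). It was below 0 on the 3 slides that held both groups (-0.56 to -0.08). HFD+1B minus chow was -0.16 (SE 0.13, adjusted p = 0.483), with a 95% interval of the fold change of 0.743 to 1.08. Elane, the elastase of the same granules, had a low signal of 36 to 95 units and log2 ratios that spanned 0.04 to 0.40 over the chow and -0.14 to 0.35 over the 1B mice, and -0.05 to 0.47 over the HFD and 0.01 to 0.49 over the HFD+1B mice. These ranges overlapped throughout, and HFD+1B minus chow was -0.04 (SE 0.13, adjusted p = 0.895), with an interval of 0.803 to 1.18-fold. That interval is of the main fit only, where the offset added to the signals pulls the ratios of so dim a probe toward no change. Under other processing settings the Elane difference in HFD+1B minus chow ran from -0.66 to 0.06. Changes beyond the interval are therefore not excluded.

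Ltf, the iron-binding protein of secondary granules, was likewise read by a bright and a dim probe. On the bright one, A_52_P15388, it was 0.78, 0.73, 0.74, and 0.46 in the chow and 0.90, 1.05, 0.32, and 0.79 in the 1B mice. The HFD mice had 1.07, 1.14, 0.48, and 0.52, and the HFD+1B mice 0.58, 0.93, 0.58, 0.40, and 0.43. The groups overlapped, and HFD+1B minus chow was -0.09 (SE 0.16, adjusted p = 0.795). On the dim one, A_51_P188141 (36 to 92 units), all group means lay between -0.11 and -0.05, and HFD+1B minus chow was 0.03 (SE 0.11, adjusted p = 0.922). The 95% intervals of the fold change reached up to 1.19 and 1.20 on the respective probes. The offset added to the signals pulls such values toward no change, more so on dim probes.

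**Figure D3:**
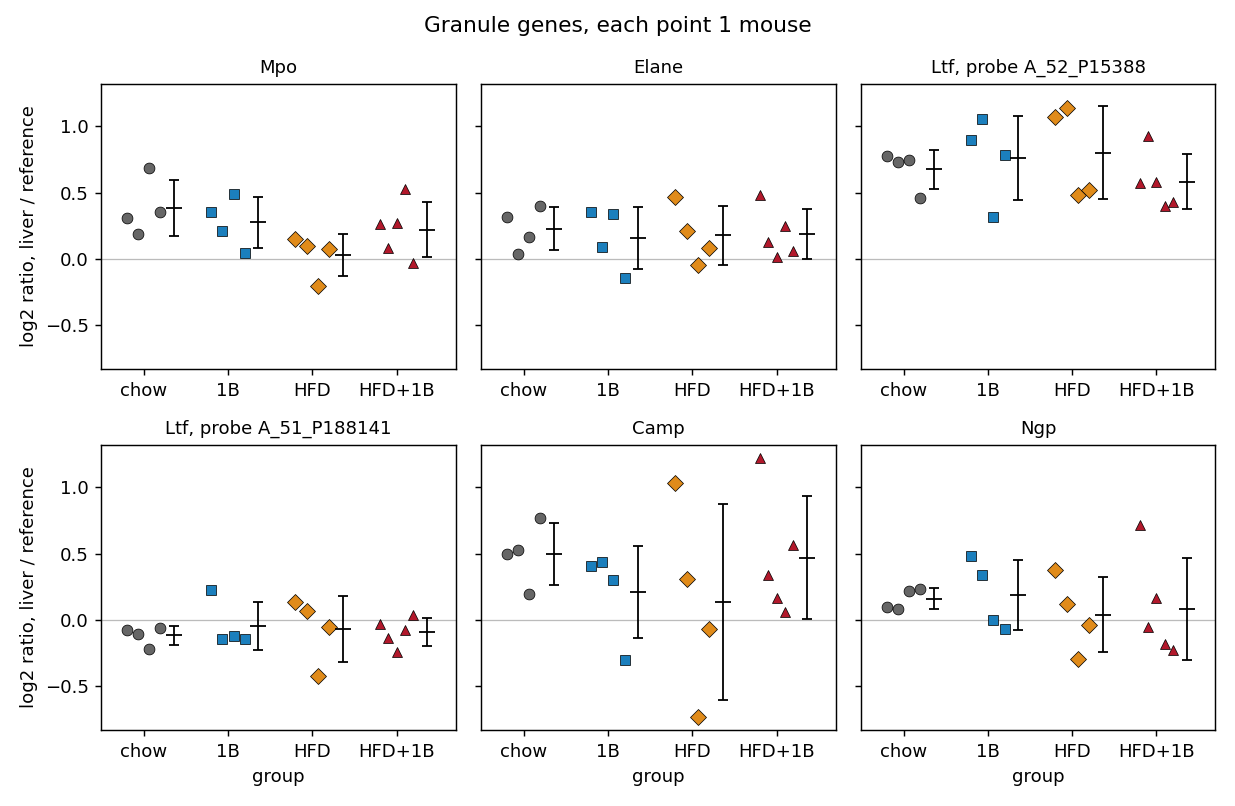
Log2 ratio of liver to reference (vertical axis) of the 6 granule probes in the 4 groups, each point 1 mouse, with the mean and SD as a bar. The groups overlap in every panel except for Mpo in HFD, all of whose mice lie below all chow mice, and Camp has the widest spread within groups.

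Camp and Ngp, whose products belong to the same protein family, spread more widely within the 1B, HFD, and HFD+1B groups than within chow. Camp was 0.50, 0.53, 0.20, and 0.77 in the chow and 0.41, 0.43, 0.30, and -0.30 in the 1B mice. The HFD mice had 1.03, 0.31, -0.73, and -0.07, and the HFD+1B mice 1.22, 0.34, 0.17, 0.06, and 0.57. Ngp was 0.10, 0.09, 0.22, and 0.24 in the chow and 0.48, 0.34, 0.00, and -0.07 in the 1B mice. The HFD mice had 0.38, 0.12, -0.29, and -0.04, and the HFD+1B mice 0.71, -0.05, 0.16, -0.18, and -0.23. HFD+1B mouse 1 was the highest of all mice and HFD mouse 3 the lowest for both genes. Not all mice matched, as HFD+1B mouse 5 was at 0.57 for Camp and was the lowest of its group for Ngp (-0.23). HFD+1B minus chow was -0.03 for Camp (SE 0.28, adjusted p = 0.968) and -0.08 for Ngp (SE 0.17, adjusted p = 0.847), with 95% intervals of 0.648 to 1.48-fold and 0.735 to 1.22-fold. In the main fit, the spread between mice thus left room for larger differences in Camp than in the other granule genes. On the 4 slides that held both groups, HFD+1B exceeded HFD in Camp each time (by 0.13 to 0.90), and that difference had an adjusted p of 0.456 (0.33, SE 0.28).

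Over the 17 arrays, the log2 ratios of Camp and Ngp correlated at r = 0.72, of Elane and Camp at 0.75, and of Elane and Ngp at 0.64. Mpo correlated with Elane at 0.48 and with Camp at 0.29, and Ltf with Camp at 0.21. These are descriptions over arrays that share slides and the reference. The genes most like Camp were Sfxn5 (r = 0.93), Ralgps2, and Tlk1, those most like Ngp were Speg (r = 0.93), Chn1, and Ino80b, and those most like Elane were Colq (r = 0.88), Olfr620, and Traf6. For Mpo they were Ren1 (r = 0.91), Cyp11b2, and Whrn, and for Ltf Emx2 (r = 0.89), C530025M09Rik, and Ttll5. None of these 15 is among the neutrophil genes of the lists used here. Among the oxidase genes, Cybb was most like Myl9 (r = 0.89), Slc34a3, and Ephb4, Ncf1 most like Gm21293 (r = 0.92), Bcas1, and Bbs9, and Ncf4 most like Fam102b, H2-Aa, and Aldh3b1 (each r = 0.92 or 0.91).

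**Figure D4:**
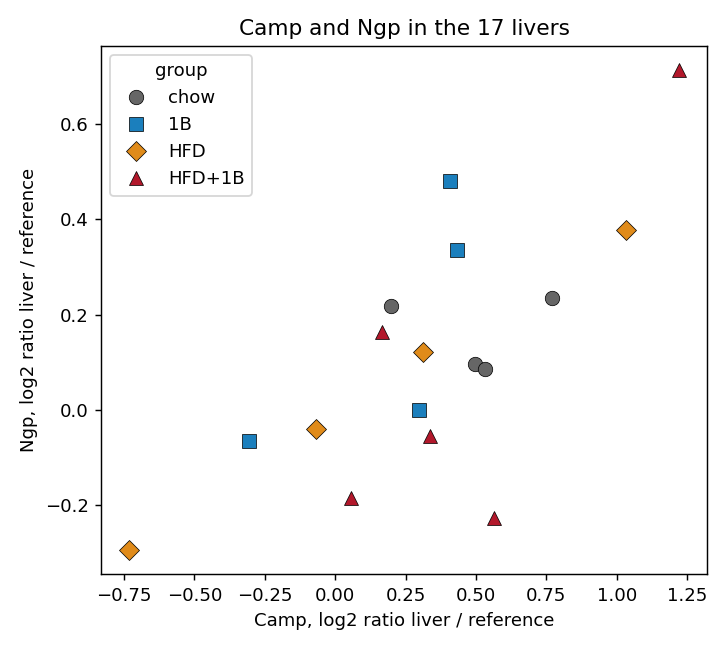
Log2 ratio of Ngp (vertical axis) against that of Camp (horizontal axis), with 1 point per mouse and a symbol per group. Both rise together over the 17 mice (r = 0.72), and HFD+1B mouse 1 and HFD mouse 3 lie at the opposite ends of both axes.

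Other genes of the oxidase family and of neutrophils were read from the same fit. Rac2 had a difference of 0.04 in HFD+1B minus chow (SE 0.18, adjusted p = 0.931). Of 8 other NADPH oxidase genes measured, 0 were called in HFD+1B minus chow, beside 16.3% of all genes in either direction. In HFD minus chow 1 was called as lower, beside 6.32%, and in HFD+1B minus HFD 1 as higher, beside 10.9%.

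Among 12 other secondary and tertiary granule genes, 4 were higher in HFD+1B than in chow and 0 lower, beside 9.02% of all genes called as higher. Lcn2 (lipocalin 2) rose by 6.18 (SE 0.72, adjusted p = 1.45e-05), Hp (haptoglobin) by 2.06 (SE 0.33, adjusted p = 0.000286), Slpi (a protease inhibitor) by 0.56 (adjusted p = 0.00657), and Mmp8 by 0.45 (adjusted p = 0.046). Lcn2 and Hp are also acute-phase genes of hepatocytes. Of 4 other genes tested that were listed with the primary granules (Bpi, Ms4a3, and Prss57 were too dim), 0 were higher. Serpinb1a (-1.13, SE 0.28, adjusted p = 0.0104) and Ctsg, cathepsin G (-0.31, SE 0.09, adjusted p = 0.0305) were lower, beside 7.29% of all genes. The chow values of Serpinb1a spread from -0.48 to 1.13. Of 15 genes of mature neutrophils, 7 were higher, beside 9.02% of all genes. Lower was 1 (Csf3r, the receptor of granulocyte colony-stimulating factor), beside 7.29%. The number of higher genes was 3 to 7 when mice were left out or another normalization was used.

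The largest differences among the mature neutrophil genes were in Hdc, which makes histamine (1.56, SE 0.14, adjusted p = 1.51e-06), and in S100a8 and S100a9, the subunits of calprotectin. S100a8 was not well above background on any of the 4 chow arrays and was at least 2.63-fold brighter in HFD+1B. That is a bound on the Cy5 signal, without a test, and is open to dye bias without a dye swap. The adjusted p of 1.29e-07 from limma is that of the log2 ratio, where the dim chow values were taken as measured. S100a9 exceeded chow by 1.04 (SE 0.20, adjusted p = 0.00152). S100a9 was -0.64 ± 0.55 (SD, n = 4) in chow and 0.40 ± 0.15 (n = 5) in HFD+1B. The mean log2 ratio of the 15 mature neutrophil genes lay at 0.19 to 0.32 in the HFD+1B mice, at -0.20 to 0.08 in the chow mice, at -0.07 to 0.21 in the 1B mice, and at -0.04 to 0.20 in the HFD mice. For the 9 genes that mean was 0.11 to 0.36 in HFD+1B and 0.16 to 0.18 in chow. The mean of the mature neutrophil genes was higher in every HFD+1B than in every chow mouse, but not all genes of the list rose. Only 9 of the 15 had a positive difference in HFD+1B minus chow, and the median difference was 0.24. Csf3r had a mean of 0.72 in chow and -0.31 in HFD+1B. Ly6g, the marker by which mouse neutrophils are often stained, had no probe under that symbol.

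Of 4 transcription factors listed for granulocytes, 2 were higher in HFD+1B than in chow, beside 9.02% of all genes. These were Cebpb (0.87, SE 0.21, adjusted p = 0.00902) and Spi1, also called PU.1 (0.44, SE 0.14, adjusted p = 0.0427). Cebpa (-1.07, SE 0.34, adjusted p = 0.0411) was lower, beside 7.29% of all genes, with 1 HFD+1B and 1 1B value missing. In whole liver, granulocytes and hepatocytes were not separated, so the cells behind these 3 differences are not known. Of 4 monocyte genes tested, 1 was called as higher, beside 9.02% of all genes. This was Plac8 (1.27, SE 0.14, adjusted p = 9.91e-06). Of 4 erythroid genes, 1 was called as higher, beside 9.02% of all genes, which was Hba-a1 (0.79, adjusted p = 0.0389). Alas2 of the same list went the other way, with a mean of 0.12 in chow and -0.31 in HFD+1B. In 5 B cell, 5 T cell, and 2 eosinophil genes, 0 were called in this comparison, beside 16.3% of all genes in either direction. Among the 5 hepatocyte genes tested, Tat was higher by 1.44 (SE 0.34, adjusted p = 0.00783) and Cyp3a11 lower, with a difference of -1.37 (SE 0.21, adjusted p = 0.000483). What part these cell types have in the values of the 9 genes was not tested.

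**Figure D5:**
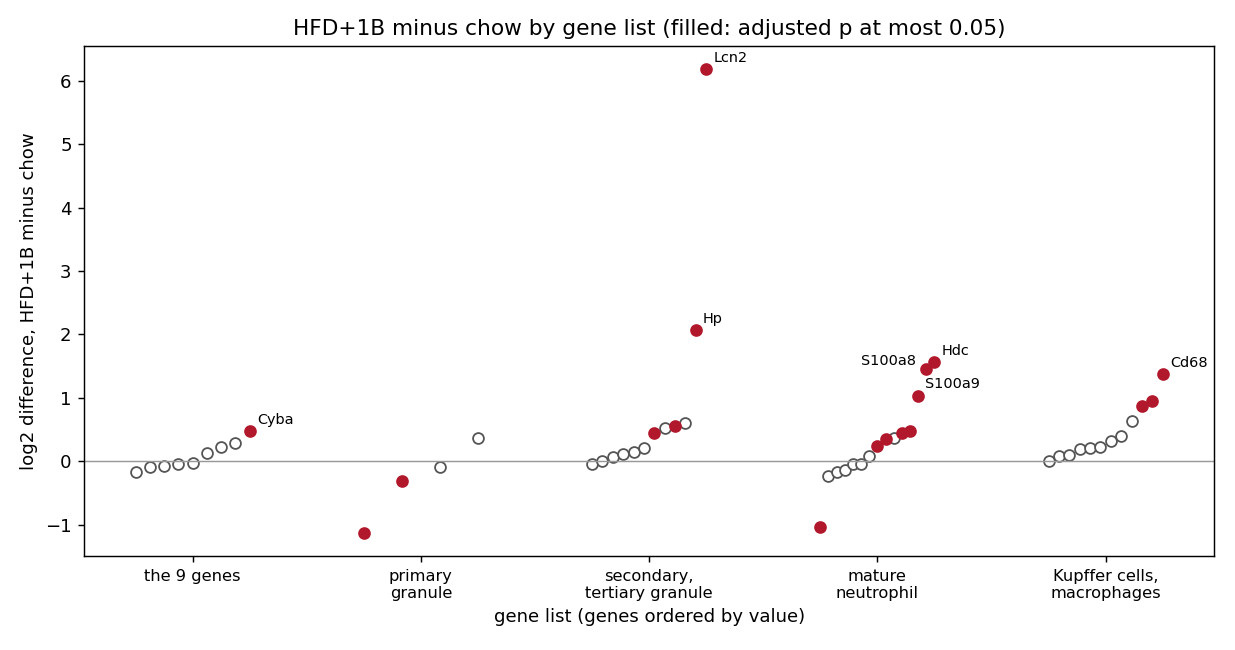
Log2 differences of HFD+1B minus chow (vertical axis) by gene list, with 1 point per gene and filled points at an adjusted p of 0.05 or less. The 9 genes lie between -0.16 and 0.48 with Cyba alone filled, while Lcn2 (6.18) and Hp (2.06) stand far above their list. S100a8 is drawn at its fitted value, which is no bound.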

How the data were processed

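RNA of 17 livers was measured on 2-color arrays, 1 array per mouse, on 5 slides scanned on 1 day. The authors extracted the spots with Feature Extraction 11.5.1.1 and deposited median signals and local backgrounds as raw intensity. They also deposited a log2 ratio table of the dye-normalized signals, which was used for gene symbols, probe sequences, and as an alternative, and which holds 0 columns of no sample. Here the signals were corrected with normexp (offset 50), spots marked as outliers were left out, loess was applied to the log2 ratios of Cy5 to Cy3 of each array, and a probe's spots were averaged. Probes well above background in Cy5 on at least 4 of 17 arrays were tested (34650), and group means were fitted with limma 3.58.1 in R 4.3.3 (lmFit and eBayes, 13 residual degrees of freedom before moderation) with Benjamini-Hochberg adjustment. Where a group had no array well above background, a bound is given from Cy5 after loess and Aquantile. The fit was tested on simulated data. The number of arrays limits the precision. A p value from limma sets a group difference against the spread within groups, which is moderated over probes. With 1 array per mouse, that spread holds differences between mice and between arrays together.

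The 9 genes and all lists were chosen with earlier results of these data known. Named are the 9 genes, Rac2, Lcn2, S100a8, and S100a9, in each list the 3 genes with the largest difference in HFD+1B minus chow at an adjusted p of 0.05 or less, and for each of the 9 the 3 genes with the highest correlation. Mmp8, Csf3r, Timd4, and Ly6g were named after their values or probes were seen. Alternatives were another background correction, normalization, filter, probe choice, threshold, and test, slide or replicate number as a block, and leaving out each mouse. The Cy3 reference is described in the labels both as assorted mouse RNA and as liver. Some items are not reported here.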

Additional observations from a re-analysis of the deposited data

Results flagged for a closer look

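In 44 groups of values (11 probes in 4 groups), 2 had a mouse far from the rest, where chance gives about 2.2. On the bright Ltf probe A_52_P15388, chow mouse 4 was the lowest of its group (0.46 against 0.73 to 0.78), with a gap of 0.845 of the range. On the dim Ltf probe A_51_P188141, 1B mouse 1 was the highest (0.23 against -0.14 to -0.12), with a gap of 0.944 of the range. Ltf was not called in any comparison.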

How the results depend on the processing

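The count of called genes among the 9 depended on the processing in 5 of the 6 comparisons, and in 1B minus chow it was 0 under every alternative and without any 1 mouse. In HFD minus chow the count was 1, and 0 with median centring, with Cy5 alone, and with a 2-fold threshold. In HFD+1B minus chow it was 1, and 0 with the authors' log2 ratio table, with Cy5 alone, and with the 2-fold threshold. In HFD+1B minus HFD it was 2, and 1 with the authors' table and with the mean of a gene's probes, and 0 with Cy5 alone and the 2-fold threshold. In HFD+1B minus 1B it was 0, and 1 with median centring and with the replicate block, and 3 with slide as a block. It was also 1 with the methods' Tukey test, which is not adjusted over genes. In the interaction it was 0, and 1 without background subtraction, with median centring, with slide as a block, and with the replicate block. Leaving out 1 mouse gave 0 to 1, 0 to 1, 0 to 2, 0 to 3, and 0 to 1 in these 5 comparisons. The main fit did not take the replicate numbers as pairs. The deviations of same-numbered mice from their group means correlated at -0.126 to 0.48 (24 pairs, 16 above 0.1), with a median of 0.179. Differently numbered mice had a median of -0.0491 (84 pairs, 19 above 0.1). For mice on the same slide the median was 0.195, and for other pairs -0.0434. Arrays that shared a number or a slide were thus more alike, which the main fit leaves out. With the replicate block, Cyba in HFD+1B minus 1B had an adjusted p of 0.0392 and Cybb in the interaction one of 0.0401, and the block changed no other call. By the local background plus 2 of its SD, 0 in place of 1 probe had a group that was not above background. No call changed direction under any alternative, and the causes of the lost and gained calls were not tested. Dim probes limit what can be seen, since Elane and the second probes of Ltf and Ncf1 had Cy5 signals under 100 units. The first Cybb probe, on which the Cybb call rests, had 61 to 93.5 units in the HFD mice and 60 to 250 in the HFD+1B mice. In the HFD mice, Ncf4 went down to 50.5 units and Ngp to 79.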
